A study of Mus musculus with 8 samples.

Results

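The genes described here were 10 interferon-inducible GTPase genes of the mouse, chosen by name and found once each among the 55801 genes of the expression table. They comprised 6 guanylate-binding proteins (Gbp2, Gbp3, Gbp5, Gbp6, Gbp7 and Gbp9) and 4 immunity-related GTPases (Irgm1, Igtp, Ifi47 and Iigp1). The guanylate-binding proteins (GBPs) are large GTPases that assemble on the vacuoles of intracellular pathogens and on bacteria in the cytosol, and they take part in the inflammasome response to bacterial products. The immunity-related GTPases (IRGs) are smaller. Their regulators, Irgm1 and Igtp (also called Irgm3), sit on host membranes and hold the effectors, such as Ifi47 (Irgd) and Iigp1 (Irga6), in an inactive state until a pathogen vacuole without the regulators is met. Both families are classical targets of interferon-gamma, in part through IRF1, and in macrophages lipopolysaccharide (LPS) also reaches them through interferons that the cells themselves release.

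RNA was sequenced from peritoneal macrophages of male C57BL/6 mice aged 6 to 8 weeks, which had received 1 ml of thioglycollate 72 h before the cells were collected. There were 4 groups of 2 samples each. The NC group received the solvent DMSO, and the LPS group received vehicle followed by LPS at 100 ng/ml for 4 h. The C498 group received C498, a small molecule known by its code name, at 15 µM, and in the C498+LPS group C498 was given 0.5 h before the same LPS challenge. All samples therefore came from thioglycollate-elicited cells of an unmodified strain. Nothing in the labels ties the samples of a group to separate mice or cultures, so p-values measure only the spread between these samples, which may be technical.

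Levels are given as TPM, a relative number of transcripts that is corrected for gene length and sums to the same total in each sample, so levels can be compared between genes and the read depth is unknown. The correlation of log2(TPM + 1) between the samples of a group was 0.962 to 0.981. Of 10 macrophage markers 9 had a mean of at least 1 TPM, and Cd163 did not. The macrophage marker sum was 17941 to 20671 TPM in the 4 samples without C498 and 12431 to 16130 TPM in the 4 samples with it, without overlap. Lyz2 alone made this gap, at 12790 to 15989 TPM without and 7831 to 11579 TPM with C498, and the sums of the other 9 markers overlapped, at 4178 to 5151 and 4551 to 4977 TPM. In C498+LPS vs LPS, 4 of the 9 tested macrophage markers were lower at an adjusted p of at most 0.05, among them Adgre1 (F4/80) at -0.92 and Csf1r at -0.91 on the log2 scale. Marker sums of other cell types differed with C498. The sum over 6 fibroblast markers was 150.3 to 200.5 TPM in the 4 samples without C498 and 618 to 911 TPM in the 4 samples with it. Over 5 mesothelial markers the sums were 4.66 to 5.58 and 14.8 to 24.5 TPM, over 6 dendritic cell markers 10.7 to 18.6 and 34.0 to 117 TPM, and over 6 B cell markers 18.0 to 25.1 and 41.7 to 120.2 TPM. Single genes made up most of the dendritic cell and B cell sums. Ccr7 made up 9.82 to 17.2 TPM without and 30.7 to 112 TPM with C498, which left 0.89 to 2.09 and 3.10 to 4.95 TPM for the other 5 dendritic cell markers. Ighm made up 14.3 to 20.99 and 36.5 to 106 TPM, and the sums of the other 5 B cell markers overlapped, at 3.65 to 4.66 and 4.46 to 13.8 TPM. The sum over 8 T cell markers was 3.93 to 6.56 TPM without and 3.68 to 8.70 TPM with C498. None of 7 NK cell markers reached a mean of 1 TPM, with sums of 0.42 to 1.08 TPM. The sum over 8 neutrophil markers, of which Elane and Ngp were at 0 in each sample, was 82.3 to 134.7 TPM without and 52.6 to 81.6 TPM with C498. S100a8 made up most of it, at 75.9 to 128 and 48.9 to 79.5 TPM, which overlapped. The other 7 neutrophil markers summed to 6.32 to 7.41 and 1.15 to 3.63 TPM. The part of these differences in the results below was not tested, and in bulk RNA fewer cells of a type and less RNA per cell cannot be told apart.

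Apart from Iigp1, the genes lie on chromosomes 3, 5 and 11 (positions from GENCODE M21 on GRCm38). Gbp5, Gbp7, Gbp3 and Gbp2 lie in this order on the plus strand of chr3:142493978-142638008, with Gbp2b between Gbp3 and Gbp2. Gbp9 and Gbp6 lie on the minus strand of chr5:105077630-105293698, with Gbp10 between them. Irgm1 (minus strand) and Ifi47 (plus strand) lie on chr11 at chr11:48861968-48871683 and chr11:49076587-49096974, and Igtp lies farther along at chr11:58199556-58207591. RefSeq promoter sequences on GRCm38.p6, running from 250 bases before to 50 bases after an annotated start, were looked up for the genes other than Iigp1. They were matched by symbol for 7 of the 10 genes, with 2 starts for Gbp3. They are shown because they carry sites known from interferon-inducible genes: the core of the interferon-stimulated response element (ISRE), searched as GAAANNGAAA, to which IRF proteins bind, and the gamma-activated site (GAS), searched as TTCNNNGAA, a site of genes that respond to interferon-gamma. Both strands were searched. The 6 promoters below are those with an ISRE core, and capitals mark the letters of an ISRE core or a GAS, also where matches overlap.
Gbp5, chr3:142496684-142496983, plus strand: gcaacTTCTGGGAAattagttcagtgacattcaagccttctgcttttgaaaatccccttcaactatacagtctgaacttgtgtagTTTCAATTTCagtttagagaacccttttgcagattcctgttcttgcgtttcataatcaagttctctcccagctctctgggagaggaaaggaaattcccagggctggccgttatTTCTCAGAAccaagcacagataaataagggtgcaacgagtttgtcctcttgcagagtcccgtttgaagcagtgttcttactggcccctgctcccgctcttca
Gbp7, chr3:142530086-142530385, plus strand: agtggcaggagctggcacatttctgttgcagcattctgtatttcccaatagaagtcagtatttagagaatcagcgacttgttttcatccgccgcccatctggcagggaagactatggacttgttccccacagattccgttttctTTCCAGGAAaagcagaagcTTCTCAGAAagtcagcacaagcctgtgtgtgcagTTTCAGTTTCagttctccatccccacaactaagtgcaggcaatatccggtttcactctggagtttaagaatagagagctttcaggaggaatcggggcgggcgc
Gbp3, chr3:142559794-142560093, plus strand: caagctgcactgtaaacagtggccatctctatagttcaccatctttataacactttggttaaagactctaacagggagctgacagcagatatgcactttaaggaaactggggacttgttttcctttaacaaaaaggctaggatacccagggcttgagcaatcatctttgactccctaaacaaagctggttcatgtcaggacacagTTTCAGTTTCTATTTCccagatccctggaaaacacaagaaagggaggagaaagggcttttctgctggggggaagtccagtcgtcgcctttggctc
Gbp2, chr3:142620413-142620712, plus strand: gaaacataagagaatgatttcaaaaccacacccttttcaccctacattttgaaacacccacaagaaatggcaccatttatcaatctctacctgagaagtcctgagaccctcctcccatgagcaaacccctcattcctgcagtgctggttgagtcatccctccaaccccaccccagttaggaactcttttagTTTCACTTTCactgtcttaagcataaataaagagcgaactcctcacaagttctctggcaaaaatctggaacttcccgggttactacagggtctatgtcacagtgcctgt
Igtp, chr11:58199306-58199605, plus strand: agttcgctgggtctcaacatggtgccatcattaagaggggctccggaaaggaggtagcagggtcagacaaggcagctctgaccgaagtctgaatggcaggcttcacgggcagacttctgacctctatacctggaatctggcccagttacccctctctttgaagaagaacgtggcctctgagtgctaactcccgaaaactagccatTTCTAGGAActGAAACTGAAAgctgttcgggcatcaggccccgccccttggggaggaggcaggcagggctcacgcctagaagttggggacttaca
Irgm1, chr11:48871371-48871670, minus strand: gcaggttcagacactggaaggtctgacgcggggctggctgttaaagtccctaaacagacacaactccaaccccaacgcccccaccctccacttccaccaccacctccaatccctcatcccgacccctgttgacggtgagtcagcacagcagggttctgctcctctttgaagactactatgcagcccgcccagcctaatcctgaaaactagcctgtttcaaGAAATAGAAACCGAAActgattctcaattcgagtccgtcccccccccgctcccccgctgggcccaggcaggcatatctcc

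An ISRE core was present in 6 of the 8 promoters of the GTPase genes, compared with 3.44% of all 32851 RefSeq mouse promoters of this length. A GAS was present in 3 of the 8, in Igtp, Gbp5 and Gbp7, compared with 8.3% of all promoters. The 3 promoters with a GAS also had an ISRE core, a pair found in 0.454% of all promoters. In Igtp the GAS began 45 bases and the ISRE core 34 bases before the start, with no overlap between them. In Gbp7 the ISRE core began 53 bases before the start, on the opposite strand, and the GAS matches began 106 and 87 bases before it. In Gbp5 the ISRE core began 165 bases before the start and the GAS matches 245 and 52 bases before it. Irgm1 and Gbp3 each had 2 overlapping ISRE cores within 45 bases of the start, and Gbp2 had a single ISRE core 59 bases before it. A kappaB-like match (GGGAANNNCC, not capitalised) was present in the Gbp5 and Gbp2 promoters, compared with 5.78% of all promoters. None of the 3 motifs was found in the Ifi47 promoter or at the second Gbp3 start. A match describes the letters of these windows and was not tested for binding in these cells.

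LPS raised the whole group of GTPase genes in vehicle-treated macrophages. On the log2(TPM + 1) scale, all 10 genes were higher in LPS vs NC at an adjusted p of at most 0.05 in limma, which 9.84% of the 12189 tested genes were, and 8 of the 10 also reached a fold change of at least 2, the threshold of a call, which 5.55% of all tested genes did upward. All 10 genes had both LPS samples above both NC samples, as 19.3% of the tested genes had. The median difference was 1.87 over the 10 genes and -0.17 over all tested genes. Every one of the 10 genes passed the filter on low values, a mean of at least 1 TPM.

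**Figure D1:**
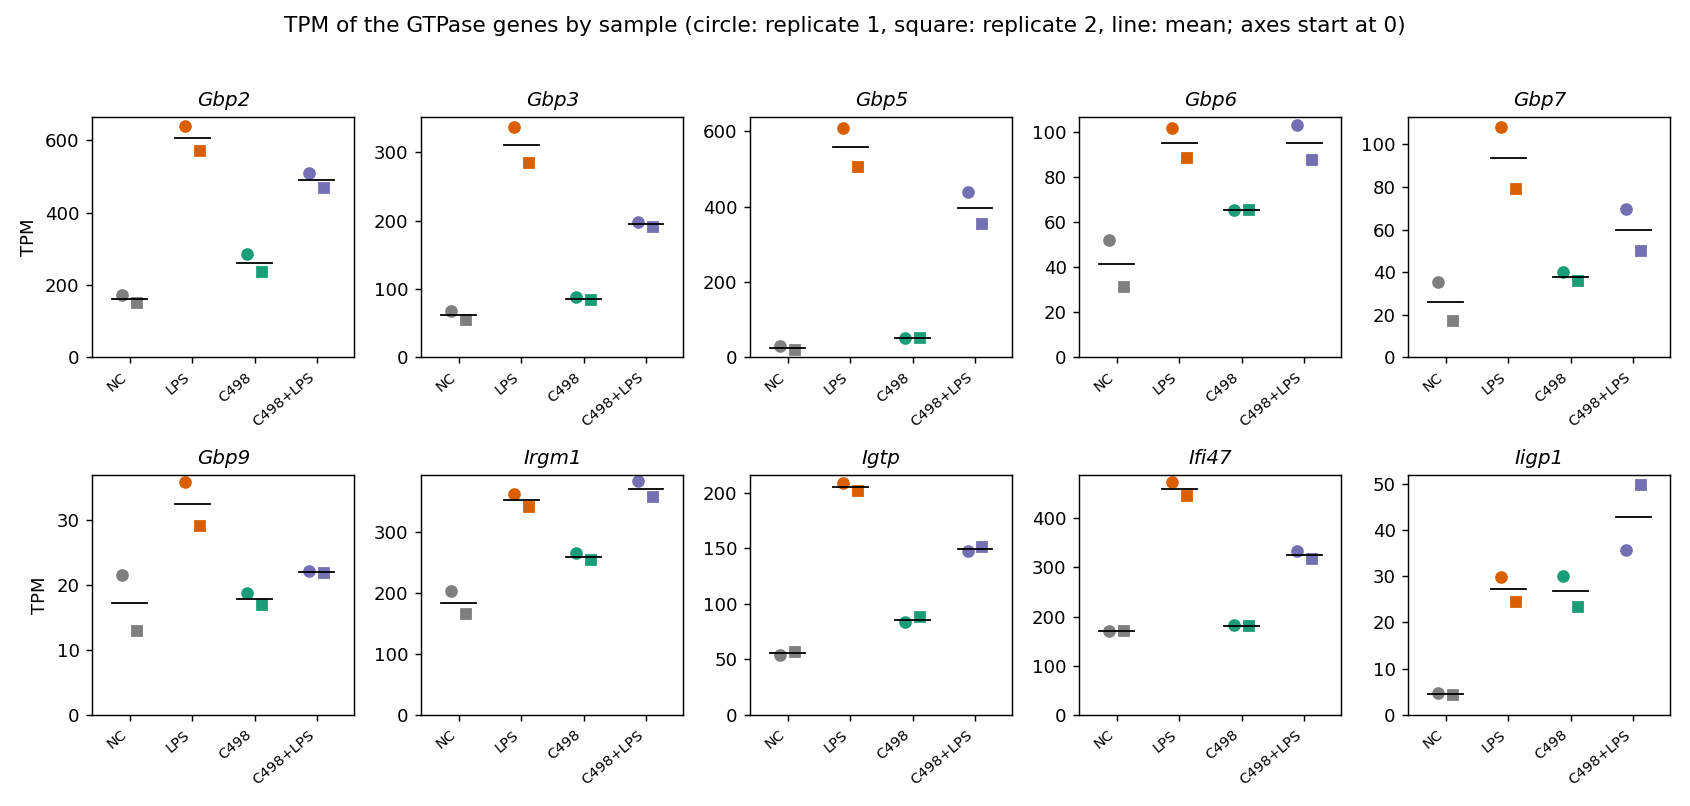
TPM of each GTPase gene in the 8 samples, with each panel's axis starting at 0. Circles are replicate 1, squares replicate 2, and lines group means. The LPS samples lie above the NC samples in all 10 panels, and Iigp1 has its highest values in the C498+LPS samples.

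Among the GBPs, Gbp5, which has been tied to inflammasome activation, made the largest change. It was at 30.5 and 19.9 TPM in the NC samples, 607 and 505 TPM in the LPS samples, 50.7 and 52.5 TPM in the C498 samples, and 438 and 355 TPM in the C498+LPS samples. The groups did not overlap and were ordered LPS, C498+LPS, C498 and NC from high to low. LPS vs NC was 4.43 (SE 0.203, adjusted p = 1.79e-05), a ratio of mean TPM of 22.1. Gbp2, a GBP needed for mouse resistance to Toxoplasma, was the most abundant GBP in each group. Its values were 171 and 151 TPM in NC, 639.9 and 572 TPM in LPS, 287 and 237 TPM in C498, and 510.5 and 469 TPM in C498+LPS. The order of the groups was that of Gbp5, again without overlap, and LPS vs NC was 1.90 (SE 0.123, adjusted p = 7.79e-05). Gbp3, of the same chromosome 3 cluster, was at 68.3 and 54.3 TPM in NC, 337 and 284 TPM in LPS, 87.7 and 83.2 TPM in C498, and 198 and 191 TPM in C498+LPS. It showed the same order without overlap, with an LPS vs NC difference of 2.33 (SE 0.134, adjusted p = 4.59e-05).

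In the groups with LPS the remaining GBPs had lower means than Gbp2, Gbp3 and Gbp5, and their LPS vs NC differences had larger standard errors. Gbp7, which is recruited to pathogen vacuoles, was at 35.4 and 16.9 TPM in NC, 108 and 79.0 TPM in LPS, 39.9 and 35.7 TPM in C498, and 69.6 and 50.1 TPM in C498+LPS. The groups did not overlap, with C498 only just above the higher NC sample, and LPS vs NC was 1.87 (SE 0.333, adjusted p = 0.00624). Without LPS replicate 1 the adjusted p was 0.0572. Gbp6, of the chromosome 5 cluster, was at 51.8 and 31.4 TPM in NC, 102 and 88.6 TPM in LPS, 65.4 and 65.3 TPM in C498, and 103 and 87.4 TPM in C498+LPS. The LPS and C498+LPS samples overlapped fully, while the other groups were apart, and LPS vs NC was 1.21 (SE 0.219, adjusted p = 0.0066). It was 0.86 without NC replicate 2, and without LPS replicate 1 the adjusted p was 0.0577. Gbp9, of the same cluster, was at 21.6 and 12.9 TPM in NC, 35.8 and 29.2 TPM in LPS, 18.8 and 16.9 TPM in C498, and 22.1 and 21.8 TPM in C498+LPS. The C498 samples fell between the NC samples. LPS vs NC was 0.91 (SE 0.229, adjusted p = 0.0229), under the fold threshold, and it was 1.26 without NC replicate 1. The adjusted p of Gbp9 lay above 0.05 when any sample outside the NC group was left out, with a highest value of 0.143 without LPS replicate 1.

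Some of these levels rest on sequence shared with other genes. Of the 150-base windows of the Gbp6 transcripts 59.1% also occur in another gene, 53.7% in Gm43302, so its reads could be split and its values are uncertain. The share was 8.77% for Gbp7 (Gm43802), 0.739% for Igtp (Irgm2) and 0% for the other 7 genes. Gbp9 overlaps Gbp8 and Gbp4 on its own strand, and Igtp overlaps Irgm2.

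The regulatory IRGs differed in size of response. Irgm1, which besides its regulator role acts on autophagy and mitochondria, had the highest mean of the IRGs in NC, beside Ifi47. It was at 203 and 165 TPM in NC, 363 and 341 TPM in LPS, 265 and 254 TPM in C498, and 383 and 358 TPM in C498+LPS. The LPS and C498+LPS samples overlapped, and both groups lay above C498, which lay above NC. LPS vs NC was 0.94 (SE 0.112, adjusted p = 0.00122), just under a 2-fold change, and it was 1.09 without NC replicate 1. Igtp was at 54.1 and 57.0 TPM in NC, 208 and 201 TPM in LPS, 83.5 and 87.9 TPM in C498, and 147 and 151 TPM in C498+LPS. Its replicates lay close together and its groups apart, in the order LPS, C498+LPS, C498 and NC. LPS vs NC was 1.86 (SE 0.0843, adjusted p = 1.71e-05).

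The effector IRGs followed different patterns. Ifi47 was at 170.3 and 170.1 TPM in NC, 473 and 446 TPM in LPS, 183 and 180.0 TPM in C498, and 333 and 316 TPM in C498+LPS. It was high in the unstimulated cells already, and its groups did not overlap although C498 lay only a little above NC. LPS vs NC was 1.43 (SE 0.0776, adjusted p = 3.67e-05). Iigp1, which binds the vacuole of Toxoplasma, was the least abundant of the 10 genes in NC and LPS. It was at 4.82 and 4.43 TPM in NC, 29.8 and 24.5 TPM in LPS, 30.1 and 23.3 TPM in C498, and 35.7 and 49.6 TPM in C498+LPS. The LPS and C498 samples overlapped, with the C498+LPS samples above them and the NC samples far below. LPS vs NC was 2.32 (SE 0.203, adjusted p = 0.000302).

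The wider families were described by 19 other GBP, IRG and very large inducible GTPase genes, of which 15 passed the filter on low values and Gm4070 had no row of its own in the table. In LPS vs NC 9 of the 15 were called higher and none lower, where 5.55% of all tested genes were called higher and 6.68% lower. The calls included Gbp4 at 2.04, Gm12250 (Irgb10, an effector) at 1.55 and Irgm2, the remaining regulator, at 1.36 on the log2 scale. Tgtp1 (2.39), Tgtp2 (2.19, the effector Irgb6) and Gbp10 (2.29) were also called, but 64.9%, 68.4% and 66.6% of their windows are shared with other genes. Gbp8, at 3.64 and 3.07 TPM in the NC samples and 1.55 and 1.02 TPM in the LPS samples, fell by 0.94 (adjusted p = 0.0335). It was the single gene of the 15 past the adjusted p in that direction. Gm5431 at 1.41, Gm12185 at 1.28 and Gm4951 at 1.08 were the other calls, while Gvin1 at 0.83 and 9930111J21Rik2 at 0.89 passed the adjusted p alone, with 96.2% and 44.3% of their windows shared. Gbp11, Irgq and 9930111J21Rik1 did not pass the test.

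C498 alone changed the GTPase genes unevenly. In C498 vs NC 2 of the 10 genes were called higher, Iigp1 and Gbp5, where 5.64% of all tested genes were called upward, and 5 of the 10 passed the adjusted p, where 9.29% of all tested genes did. Both C498 samples lay above both NC samples for 9 of the 10 genes, all but Gbp9, as they did for 29.3% of the tested genes. The median difference was 0.61 over the 10 genes and 0.01 over all tested genes. With each sample centred on its median gene, Gbp9 and Ifi47 changed sign.

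Iigp1 made the largest change, from a mean of 4.62 ± 0.276 TPM (SD, n = 2) in NC to 26.7 ± 4.81 TPM in C498, which was 2.29 (SE 0.203, adjusted p = 0.000814). That level without LPS was close to the 27.2 ± 3.75 TPM of the LPS group, and the samples of those groups overlapped. Gbp5 rose by 1.03 (SE 0.203, adjusted p = 0.018), from 25.2 ± 7.47 to 51.6 ± 1.26 TPM. Its call was lost without NC replicate 2, where the difference was 0.74, and without either C498 sample, where the adjusted p was 0.110 and 0.113. It was also lost with no filter on low values, with only the 2 groups fitted and with median centring. Gbp2 at 0.69, Igtp at 0.62 and Irgm1 at 0.50 passed the adjusted p (0.0127, 0.00494 and 0.027) and did not reach a 2-fold change. Of these, Gbp2 did not pass without NC replicate 2 (adjusted p = 0.0574) or C498 replicate 1 (0.0935). Irgm1 did not pass without NC replicate 2, either LPS sample or either C498 sample, with adjusted p from 0.0576 to 0.157.

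The remaining 5 genes did not pass the test without LPS. Gbp3 differed by 0.48 (95% confidence interval 0.17 to 0.80, adjusted p = 0.0524), Gbp6 by 0.68 (0.17 to 1.20) and Gbp7 by 0.60 (-0.18 to 1.39). Leaving out NC replicate 1 brought Gbp3 past the adjusted p (0.0186) and Gbp6 and Gbp7 past both thresholds, at 1.04 and 1.11. Leaving out NC replicate 2 instead lowered the differences to 0.32 for Gbp3, 0.33 for Gbp6 and 0.09 for Gbp7. Ifi47 differed by 0.09 (-0.09 to 0.28) and Gbp9 by 0.09 (-0.45 to 0.62). The effector Ifi47 stood at 182 ± 2.26 TPM after C498 and 170.2 ± 0.17 TPM in NC, while the effector Iigp1 was 5.78 times as high. Of the 15 other family genes, Gbp4 (1.04), Tgtp1 (1.35) and Gbp10 (3.28) were called higher, where 5.64% of all tested genes were, and Tgtp2 (0.89, adjusted p = 0.00232) passed the adjusted p. Gbp10, for which 66.6% of windows are shared, was at 3.28 and 0 TPM in the NC samples, and at 20.3 and 18.0 TPM in the C498 samples.

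LPS also raised 6 of the 10 GTPase genes after C498. In C498+LPS vs C498 2 of the 10 genes, Gbp5 at 2.91 (SE 0.203, adjusted p = 0.000276) and Gbp3 at 1.18 (SE 0.134, adjusted p = 0.00207), were called higher, where 2.52% of all tested genes were called upward. At the adjusted p alone 6 of the 10 were higher, where 4.51% of all tested genes were. These added Gbp2 at 0.91, Ifi47 at 0.83, Igtp at 0.79 and Irgm1 at 0.51. Both C498+LPS samples lay above both C498 samples for all 10 genes, as for 17.4% of the tested genes, and the median difference was 0.72, against -0.18 over all tested genes. Irgm1 passed the adjusted p with all samples (0.024) and not when any sample of the LPS, C498 or C498+LPS group was left out (0.0544 to 0.148). Without C498 replicate 1 the Gbp2 difference was 1.04 and was called. With samples centred on their median gene 5 of the 10 were called, since Gbp2, Igtp and Ifi47 then reached 1.12, 1.01 and 1.05. The genes that did not pass were Iigp1 at 0.65 (0.17 to 1.13), Gbp7 at 0.63 (-0.15 to 1.42), Gbp6 at 0.53 (0.02 to 1.05) and Gbp9 at 0.29 (-0.25 to 0.83).

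**Figure D2:**
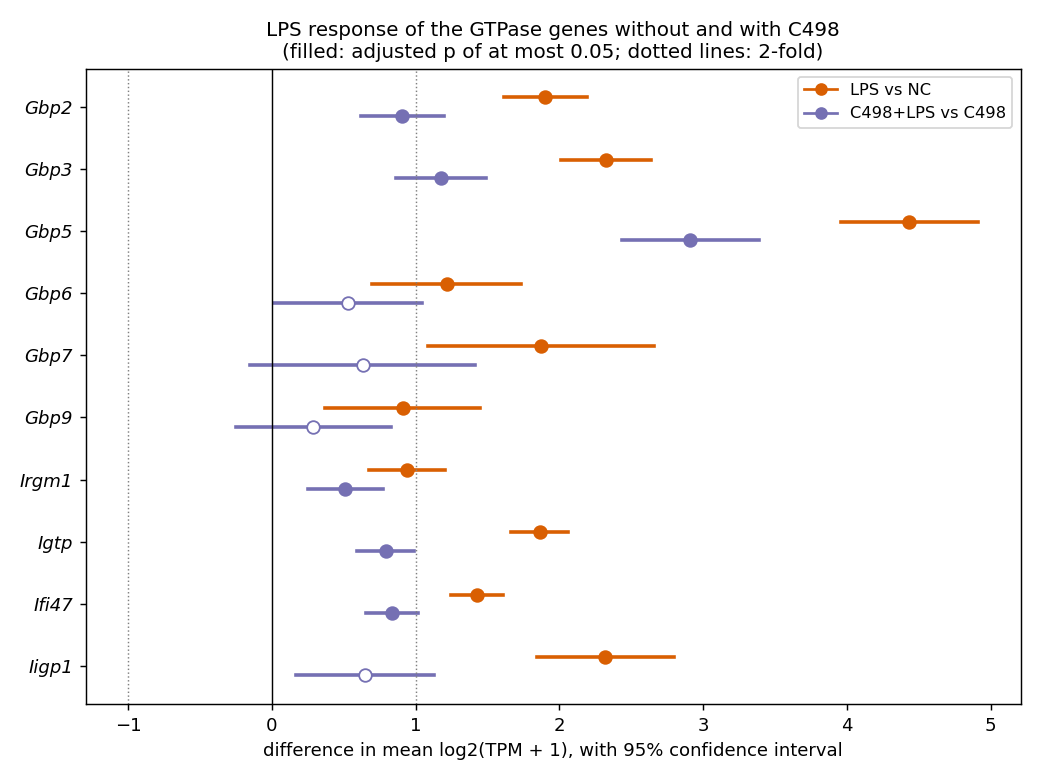
Difference in mean log2(TPM + 1) with its 95% confidence interval for LPS vs NC (orange) and C498+LPS vs C498 (purple). Filled points passed an adjusted p of 0.05, and dotted lines mark a 2-fold change. The purple point lies to the left of the orange point for all 10 genes.

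The difference between the LPS responses, the interaction of C498 and LPS, was negative for all 10 genes, from -1.67 for Iigp1 to -0.43 for Irgm1, with a median of -1.03 against -0.03 over all tested genes. Of all tested genes 52.9% were negative. The direction held for all 10 genes in each of the 15 alternatives that were computed. Only Igtp passed the test among the 10, at -1.07 (SE 0.119, adjusted p = 0.0214), where 0.394% of all tested genes were called lower. That call was lost with samples centred on their median gene (adjusted p = 0.104), where Gbp3 at -1.10 (0.033) and Gbp5 at -1.48 (0.0448) were called in its place, and with quantile normalization (-0.96, under 2-fold). Igtp rose by 149 TPM in LPS vs NC and by 63.4 TPM in C498+LPS vs C498. Its adjusted p was 0.0734 to 0.133 when any sample of the LPS, C498 or C498+LPS group was left out. The other 9 genes had adjusted p from 0.0681 (Gbp3) to 0.541 (Gbp9), and 8 of the 10 had an unadjusted p under 0.05, where 6.21% of all tested genes were lower at that p. Without NC replicate 1, Gbp3 at -1.31 (adjusted p = 0.0417) and Gbp5 at -1.82 (adjusted p = 0.0416) passed as well. For Iigp1 the interaction of -1.67 (SE 0.287, adjusted p = 0.0749) stood beside C498 samples that overlapped the LPS samples. For Ifi47 the interaction was -0.59 (SE 0.110, adjusted p = 0.0915), beside means of 170.2 TPM in NC and 182 TPM in C498. Among the other family genes Tgtp2, with its shared windows, was called at -1.05 (adjusted p = 0.0402).

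In stimulated cells 3 of the 10 GTPase genes were lower with C498, in C498+LPS vs LPS, and none by 2-fold. Ifi47 fell by 0.50 (SE 0.0776, adjusted p = 0.00653), Igtp fell by 0.46 (SE 0.0843, adjusted p = 0.0122) and Gbp3 fell by 0.67 (SE 0.134, adjusted p = 0.0161), where 7.70% of all tested genes were lower at the adjusted p. These genes kept 70.6%, 72.8% and 62.6% of their LPS level. These 3 results depended on single samples. Leaving out an LPS or C498+LPS sample gave adjusted p of 0.0514 to 0.116 for Gbp3 and 0.0502 to 0.0859 for Igtp, and leaving out LPS replicate 1 gave 0.0576 for Ifi47. Igtp was at 0.0707 with quantile normalization. No gene of the 10 was called by limma with the fold threshold, compared with 5.39% of all tested genes upward and 2.18% downward, and 6 of the 10 had an unadjusted p under 0.05, 5 lower and 1 higher, where 15.1% of all tested genes were lower and 16.0% higher at that p.

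**Figure D3:**
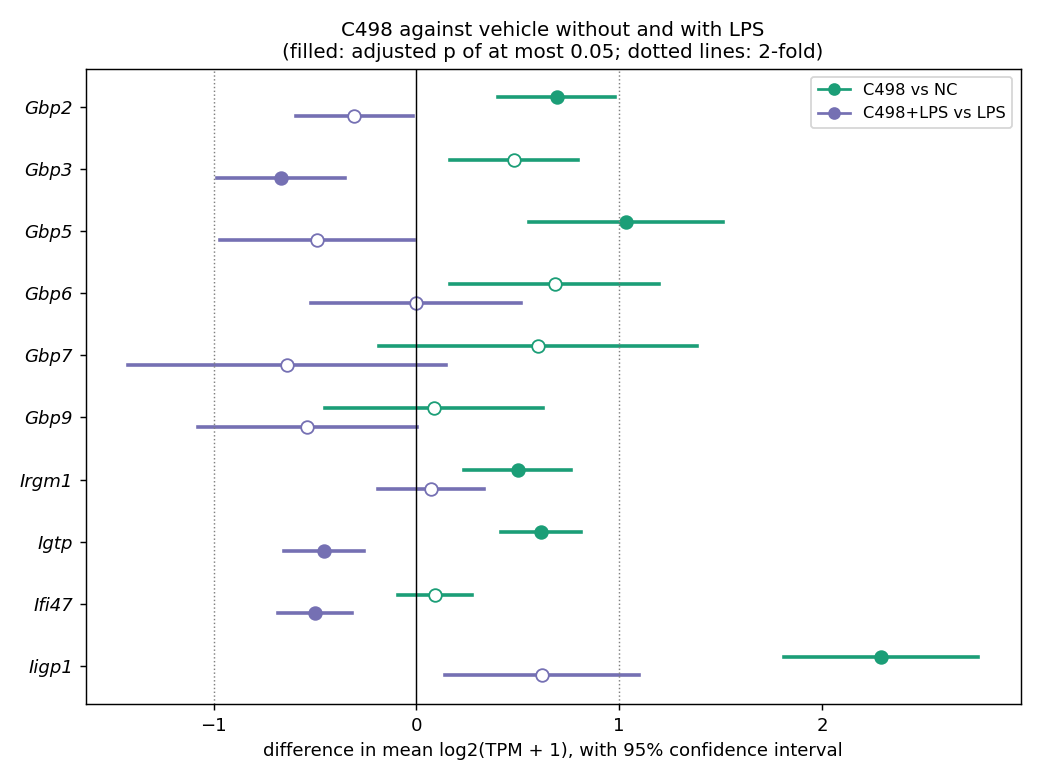
Difference in mean log2(TPM + 1) with its 95% confidence interval for C498 vs NC (green) and C498+LPS vs LPS (purple). Filled points passed an adjusted p of 0.05, and dotted lines mark a 2-fold change. The green points lie above 0 for all 10 genes, of which Gbp9 and Ifi47 fell below 0 with median centring, and the purple points lie above 0 for Irgm1 and Iigp1 only, of which Irgm1 fell below 0 with median centring.

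Both C498+LPS samples lay below both LPS samples for 7 of the 10 genes, as for 30.9% of the tested genes, and above them for Iigp1, as for 31.9%. The median difference was -0.47 over the 10 genes and 0.0065 over all tested genes. Of the genes that did not pass, Gbp7 differed by -0.64 (-1.42 to 0.15), Gbp9 by -0.54 (-1.08 to 0.0012), Gbp5 by -0.49 (-0.97 to -0.01) and Gbp2 by -0.31 (-0.59 to -0.02). The regulator Irgm1 differed by 0.07 (-0.19 to 0.34), so that a change of 2-fold in either direction lay outside the interval, and it changed sign with median centring. Gbp6 differed by -0.0017 (-0.52 to 0.51), and its sign was reversed by quantile normalization and without LPS replicate 1 or C498+LPS replicate 2. Iigp1 differed by 0.62 in the opposite direction (0.14 to 1.10, adjusted p = 0.0823), from 27.2 ± 3.75 to 42.7 ± 9.83 TPM, and by 0.39 without C498+LPS replicate 2. That sample also had the highest sums of the fibroblast (911 TPM), mesothelial (24.5 TPM), dendritic cell (117 TPM), B cell (120.2 TPM), T cell (8.70 TPM) and NK cell (1.08 TPM) markers and the lowest sum of the macrophage markers (12431 TPM, of which Lyz2 made up 7831 TPM), and their part in the Iigp1 values was not tested. Of the 15 other family genes none was called, and Irgm2 (-0.55), Gm12250 (-0.85) and 9930111J21Rik2 (-0.96) were lower at the adjusted p. The comparisons C498 vs NC and LPS vs NC share the NC samples, and C498+LPS vs LPS shares the LPS samples with LPS vs NC, so the values of these comparisons are not independent of each other.

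Summed over genes, the 6 GBPs held 333 ± 65.3 TPM in NC, 1694 ± 192 TPM in LPS, 519.8 ± 41.4 TPM in C498 and 1258 ± 119 TPM in C498+LPS (SD, n = 2). The 4 IRGs held 414 ± 24.9, 1044 ± 43.1, 553 ± 11.7 and 887 ± 16.9 TPM in the same order. The C498+LPS sum was 74.2% of the LPS sum for the GBPs and 85.0% for the IRGs. With LPS the make-up of the GBP sum shifted toward Gbp5, whose share went from 7.50 ± 0.774% in NC to 32.8 ± 0.534% in LPS, while that of Gbp2 went from 49.0 ± 5.32% to 35.8 ± 1.24%. After C498, Gbp5 made up 9.96 ± 1.04% without and 31.4 ± 1.73% with LPS. In the IRG sum Iigp1 took 1.12% in NC, 2.60% in LPS, 4.82% in C498 and 4.82% in C498+LPS. Irgm1 took 44.3% in NC and 33.7% in LPS, and 46.9% and 41.8% in C498 and C498+LPS.

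**Figure D4:**
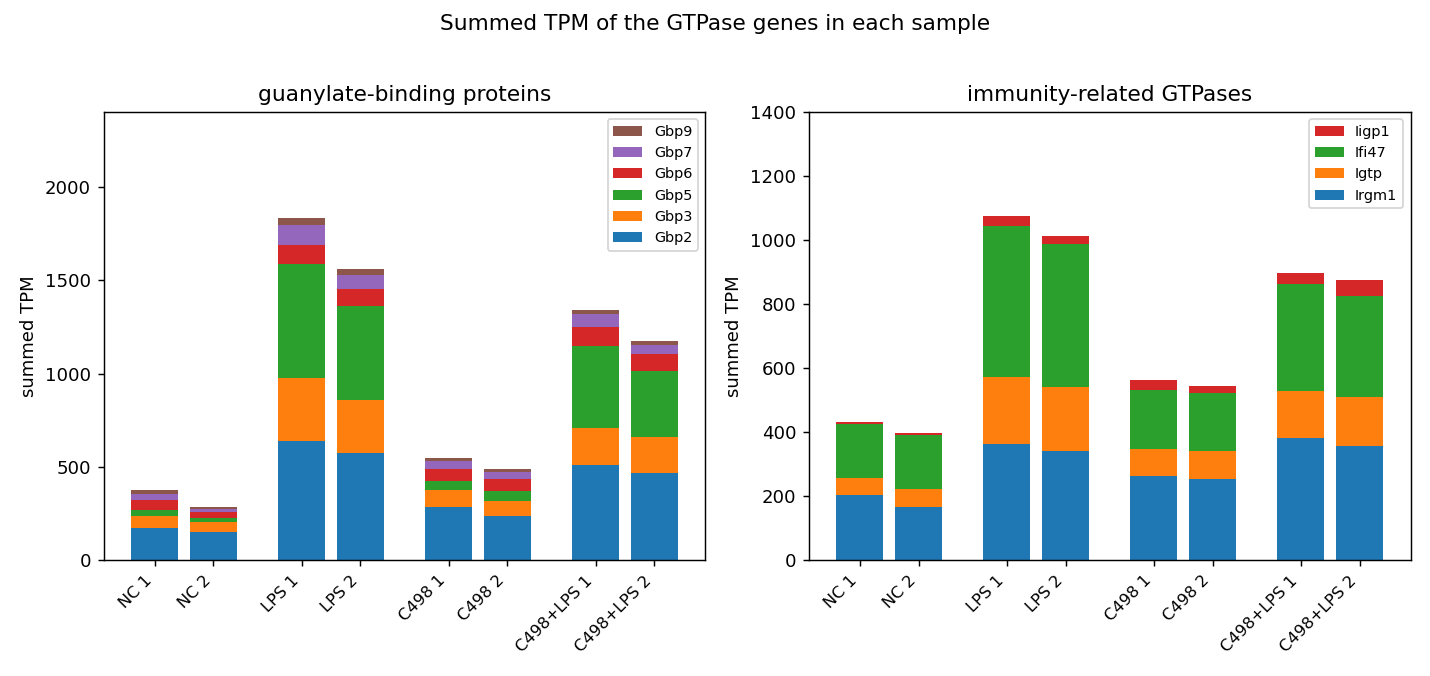
Summed TPM of the 6 guanylate-binding proteins (left) and the 4 immunity-related GTPases (right) in each of the 8 samples, with bars starting at 0 and colours marking the genes. Gbp5 is a thin band in the NC and C498 samples and a broad one in the LPS and C498+LPS samples.

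Interferon-gamma, the classical inducer of these genes, was itself measured. Ifng was at 0.88 and 1.15 TPM in NC, 5.65 and 5.22 TPM in LPS, 12.7 and 14.7 TPM in C498, and 25.9 and 48.0 TPM in C498+LPS. The groups did not overlap and were ordered C498+LPS, C498, LPS and NC. Ifng rose in LPS vs NC (1.68, adjusted p = 0.00464), in C498 vs NC (2.87, adjusted p = 0.00114) and in C498+LPS vs LPS (2.50, adjusted p = 0.00192). The T cell marker sum was 3.68 to 8.70 TPM and the NK cell marker sum 0.42 to 1.08 TPM in the samples with C498, as given above, and the cells that made the Ifng transcripts were not tested. Of 8 other listed interferon genes none reached a mean of 1 TPM. Ifnb1 was listed at 0 in both NC samples and at 0.27 and 1.60 TPM in LPS, and at 1.10 and 0.65 TPM in C498+LPS.

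Of the receptor chains of interferon-gamma, Ifngr2 was lower at the adjusted p in each comparison between groups, and Ifngr1 only in LPS vs NC and C498 vs NC. Ifngr1, the binding chain of the interferon-gamma receptor, fell by 1.03 in LPS vs NC (adjusted p = 0.0015), and Ifngr2, the signalling chain, fell by 0.52 (adjusted p = 0.00568). Both were also lower in C498 vs NC, at -0.60 and -0.57 (adjusted p = 0.0239 and 0.00807), and in C498+LPS vs LPS Ifngr2 fell by 0.65 (adjusted p = 0.00418). Ifngr1 was at -0.0048 in that comparison (adjusted p = 0.991). In C498+LPS vs C498, Ifngr1 was at -0.44 (adjusted p = 0.0619) and Ifngr2 at -0.59 (adjusted p = 0.00697). Ifngr2 had its highest mean in NC (92.0 ± 0.728 TPM) and its lowest in C498+LPS (40.5 ± 1.38 TPM). The receptor chain Ifnar2 was lower in C498+LPS vs LPS (-0.44, adjusted p = 0.0268), and Ifnar1 did not pass the test in any comparison. Jak2, a kinase of the interferon-gamma receptor, was at 35.5 and 21.2 TPM in NC, 155 and 131 TPM in LPS, 36.9 and 35.2 TPM in C498, and 115 and 96.2 TPM in C498+LPS. It was called in LPS vs NC at 2.33 (adjusted p = 0.000497) and in C498+LPS vs C498 at 1.52 (adjusted p = 0.00639), and it did not pass the test in C498 vs NC (0.38, adjusted p = 0.292). Tyk2, a kinase of the type I receptor, fell by 0.82 in C498+LPS vs LPS (adjusted p = 0.0134).

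Of the 7 interferon regulatory factors, Irf1, a direct activator of GBP genes, was called in LPS vs NC (1.58, adjusted p = 0.000103) and in C498 vs NC (1.21, adjusted p = 0.000834). It was at 166 and 157 TPM in NC, 527 and 446 TPM in LPS, 389 and 359 TPM in C498, and 612 and 553 TPM in C498+LPS, where the C498+LPS samples were highest. Irf8, a factor of myeloid cells, was called in C498+LPS vs LPS (1.43, adjusted p = 0.00122), from 118 and 93.0 TPM to 299 and 269.6 TPM. In that comparison 4 of the 7 factors were lower at the adjusted p, among them Irf5 (-0.80) and Irf2 (-0.61), where 7.70% of all tested genes were. Irf1 did not pass the test there (0.26, adjusted p = 0.149). Of the 9 inhibitors of interferon signalling 5 were called higher in LPS vs NC, where 5.55% of all tested genes were, led by Socs1 at 2.60, Isg15 at 2.24 and Socs3 at 2.06. Socs3 (1.34) and Socs1 (1.05), which block receptor kinases, were also called in C498 vs NC, where 5.64% of all tested genes were called upward. The list was split in that comparison, with 3 of the 9 higher and 3 lower at the adjusted p and a median of -0.00078. Ptpn6 went from a mean of 262 TPM in NC to 133 TPM in C498. The phosphatase Ptpn6 (-1.28) and Usp18 (-1.02), an inhibitor of the type I receptor, were called lower in C498+LPS vs LPS, where 2.18% of all tested genes were.

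**Figure D5:**
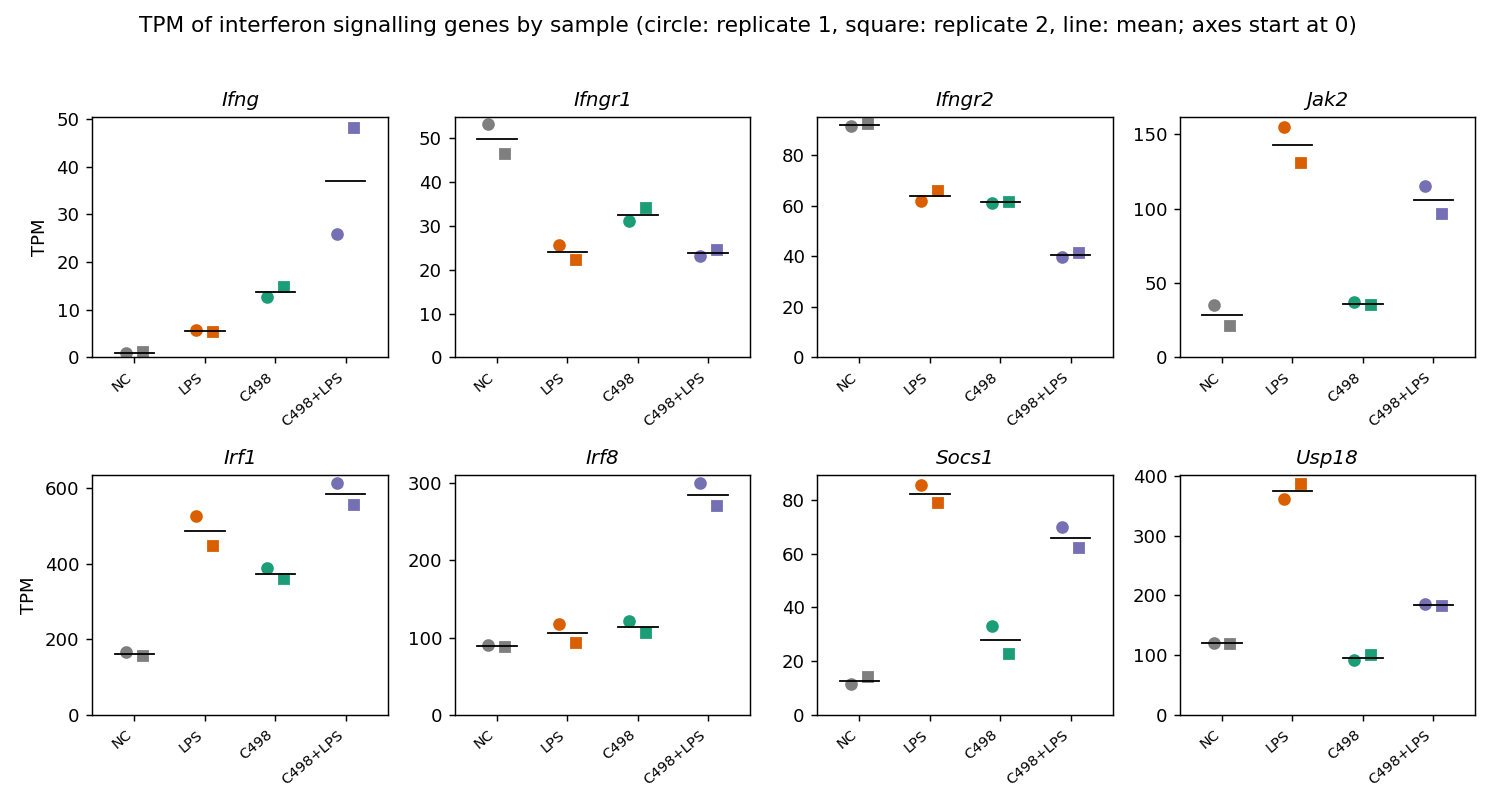
TPM of 8 interferon signalling genes in the 8 samples, with each panel's axis starting at 0. Circles are replicate 1, squares replicate 2, and lines group means. Ifng is highest and Ifngr2 lowest in the C498+LPS samples, and Irf1 is above its NC level in the other 3 groups.

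The lists of genes that work with the GTPases were read against the shares of all tested genes. In LPS vs NC 5.55% of these were called higher and 6.68% lower, and in C498+LPS vs LPS 5.39% and 2.18%. Of 13 autophagy conjugation and ubiquitin genes, which direct GTPases to vacuoles, 2 were called higher (Trim21 at 1.67 and Sqstm1 at 1.48) and 1 lower (Atg7 at -1.13) in LPS vs NC. Trim21, a ubiquitin ligase that is also interferon-inducible, fell by 1.00 in C498+LPS vs LPS (adjusted p = 0.0128), and Sqstm1, the autophagy receptor p62, was called in C498 vs NC at 1.06. Each was the single gene of the 13 called in that comparison, and in C498 vs NC 5.64% of all tested genes were called higher. Of 8 inflammasome and pyroptosis genes 4 were called higher and 1 lower in LPS vs NC, led by Il1b at 6.47, Nlrp3 at 3.47 and Il18 at 1.47. None was called in C498+LPS vs LPS, where Gsdmd, the pore protein of pyroptosis, fell by 0.73 (adjusted p = 0.00602). Of 24 tested other interferon-inducible genes 14 were called higher in LPS vs NC, led by Cxcl10 at 6.71. Isg20 (-1.47) and Ddx58 (-1.12) were called lower in C498+LPS vs LPS, and Cxcl9 (1.44), a chemokine induced mainly by interferon-gamma, was called higher. At the adjusted p 18 of the 24 were lower, where 7.70% of all tested genes were, with a median of -0.58. The same count was 3 of the 10 GTPase genes, with their median of -0.47, and the lists were not tested against each other.

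The 10 GTPase genes shared much of their pattern over the 8 samples, which is a description since the samples fall into treatment groups. The Pearson correlation of each gene's log2(TPM + 1) with the mean of the other 9 was highest for Gbp2 (0.991) and Gbp3 (0.979) and lowest for Gbp9 (0.832) and Iigp1 (0.762). Outside the group, the 5 genes whose pattern was most like the members' mean profile were Slc7a11 (0.996), Peli1 (0.995), Nfkbie (0.995), Fnbp1l (0.993) and Tank (0.992). In each of these 5 the group means were ordered LPS, C498+LPS, C498 and NC. A correlation of at least 0.9 was reached by 452 of the 11874 genes compared, whose median was -0.258.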

How the data were processed

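RNA-seq was done on 8 samples of mouse peritoneal macrophages. The authors trimmed reads with fastp and used HISAT2, StringTie and RSEM, per the labels' processing notes, and deposited TPM per gene and sample together with group means. Versions, genome build and annotation are not given in the sources used here. The authors tested counts with DESeq2, and counts were not analysed here. Groups were taken from the treatment labels, and the columns of the table were matched to samples by their titles.

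From the deposited TPM values, log2(TPM + 1) of the 12189 genes with a mean of at least 1 TPM was fitted with limma 3.58.1 in R 4.3.3, all 8 samples entering 1 model of group means with a variance trend. Adjusted p are Benjamini-Hochberg values over all tested genes within a comparison. A call needed an adjusted p no higher than 0.05 together with a change of 2-fold or more. A fold change on this scale understates the change of genes with low TPM. SE, confidence intervals (95%) and log2 differences come from this fit, and ± values are SDs of TPM. The fit was checked on simulated data. Figures used matplotlib 3.10.9.

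Members and gene lists were chosen with earlier results of these data known. Named were all 10 members, other family genes with a mean of at least 1 TPM, up to 3 genes per other list with the largest change in the comparison described, and the 5 genes most like the members' mean profile. Per-sample values of Jak2, Irf1 and Ifngr2 and of the 8 plotted signalling genes were chosen after their values were seen. A gene of the signalling lists is not reported here. Alternatives changed the pseudocount, filter, scaling, samples fitted, variance trend, replicate block and fold threshold, and left out each sample in turn.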

Additional observations from a re-analysis of the deposited data

Results flagged for a closer look

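The difference between the LPS responses with and without C498 was past the test for Igtp, at -1.07 on the log2 scale (adjusted p = 0.0214 in limma, the interaction of C498 and LPS over all 8 samples). Igtp rose from 55.6 to 205 TPM without C498 and from 85.7 to 149 TPM after it, and the samples of the 4 groups did not overlap. The call was lost in 9 of the 15 alternatives computed for it: with centring on the median gene (adjusted p = 0.104), with no variance trend (0.092), with quantile normalization (-0.96, under 2-fold) and without each of the 6 samples outside NC (0.0734 to 0.133). The direction was negative in all 15. The 2 samples per group were too few to look for a sample that stood apart from its group.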

How the results depend on the processing

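Counts of calls were recomputed under up to 17 alternatives. Values of single members were recomputed under 16 of them for 4 comparisons, since a fold threshold does not change a value, and under 15 for the interaction, which needs all groups. Of these 790 values, 746 kept their direction and their side of the call, 20 were no longer called, 16 became called and 8 changed sign. Calls of LPS vs NC, and calls upward in C498+LPS vs LPS and in the interaction, stayed within 1.5 times the reported count in each alternative. In C498+LPS vs C498 the 2 upward calls became 5 with each sample centred on its median gene and 6 with no fold change threshold. The 0 downward calls in C498+LPS vs LPS became 3 with no fold change threshold. In C498 vs NC the 2 upward calls became 1 with no filter on low values, 1 with centring, 1 with only the groups compared and 5 with no fold change threshold, and leaving out 1 sample gave 1 to 4, the highest without NC replicate 1. In the interaction the 1 downward call became 2 with centring (Gbp3 and Gbp5, without Igtp), 0 with quantile normalization, 0 with no variance trend, and 0 to 3 when 1 sample was left out, the highest again without NC replicate 1.

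Signs changed as follows. In C498+LPS vs LPS, Gbp6 was at 0.097 with quantile normalization and at -0.12 to 0.11 when 1 sample was left out, and Irgm1 was at -0.0039 with centring. In C498 vs NC, Gbp9 was at -0.036 with centring, -0.030 with quantile normalization and -0.26 to 0.44 when 1 sample was left out, and Ifi47 was at -0.029 with centring. The cause was not tested. Centring moved the median of all genes in LPS vs NC from -0.17 to -0.00054, in C498+LPS vs C498 from -0.18 to 0.038 and in C498 vs NC from 0.014 to -0.11, and the share of calls that were upward went from 45.4% to 61.7%, from 44.6% to 68.9% and from 80.5% to 67.7%.

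Replicate numbers recur across groups, but nothing in the labels ties same-numbered samples together, and their deviations correlated at 0.0397 to 0.168 over the 6 pairs of groups, not above 0.1 in every pair. The numbers were therefore not taken to pair the samples. With a replicate block the interaction called 3 members (Igtp, Gbp3 and Gbp5) in place of 1, and no other count of calls moved by more than 1.5 times. At the adjusted p alone, the block also brought Gbp3 (0.0184) and Gbp6 (0.0315) past 0.05 in C498 vs NC, and Gbp2 in C498+LPS vs LPS (0.0305) and in the interaction (0.0161). Members were higher in replicate 1 than in replicate 2 for 9 of 10 in NC, 10 of 10 in LPS, 8 of 10 in C498 and 8 of 10 in C498+LPS.

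Precision rests on 2 samples per group, as the printed confidence intervals give it, and no limit from counting is given because the depth is unknown.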

Other observations

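The interaction of C498 and LPS was also computed for the genes around the GTPases. Of the 15 other family genes 14 were negative, with a median of -0.80, where 52.9% of all tested genes were negative, and 0.394% of all tested genes were called lower. Called lower were Cxcl10 at -2.55 (adjusted p = 0.0031) and Rsad2 at -1.54 (0.0478) of 24 interferon-inducible genes, Socs3 at -1.05 (0.0436) of 9 inhibitors, Sqstm1 at -1.01 (0.0243) of 13 autophagy genes and Il1b at -1.36 (0.0412) of 8 inflammasome genes. Irf8 was at 1.08 and Irf1 at -0.94, and neither passed the test (adjusted p = 0.0783 and 0.0664). Ifng was at -0.37 (adjusted p = 0.771).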
